A study of Homo sapiens with 4 samples.

Results

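The genes described here are 41 genes of S phase and DNA replication, taken by symbol from a fixed list and read from the raw counts of polyadenylated RNA in lipid-loaded Hep G2 cells. All 41 were found among the 62655 gene IDs of the count table, and all 41 passed the filter on low counts with which 14464 genes were tested. No measured value was used to choose them, but the choice was made with earlier results of these data known.

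Chromosomes are copied once per cell cycle from origins that are licensed in G1. ORC, CDC6 and CDT1 load the ring-shaped MCM helicase onto DNA, geminin blocks further loading once S phase begins, and CDC45 and the GINS complex switch the ring on. Primase and DNA polymerases then build the new strands on the sliding clamp PCNA, while thymidylate synthase and ribonucleotide reductase supply nucleotides and chromatin factors package and re-methylate the copy. Most of these genes are transcribed at the border of G1 and S under the control of E2F factors. Hepatocytes in adult liver rarely divide, whereas Hep G2, an established line from a human hepatocellular tumour, grows continuously in culture.

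All 4 samples were Hep G2 cells made steatotic with oleic acid. They were seeded at 150000 cells per ml, moved to the oleic acid-rich medium after 24 h, transfected with HiPerFect 24 h later and harvested another 24 h on. In 2 of them the oligonucleotide was a mimic of LysTTT-5'tRF, a fragment of the lysine tRNA with anticodon TTT, and in the other 2 it was the negative control. A cell line under transfection, with no untransfected or lean culture among these samples, is what the comparison covers. The labels do not say whether the 2 samples of a group came from separate cultures, so each p-value reflects only how far these libraries differ, and that may be technical.

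Reads in genes ranged from 15430539 to 18961222 per library. The mimic columns carry a code that the labels do not explain and are the mimic by elimination, and the library numbers used below are those of the columns. The libraries differed within groups. Along the first principal component of log2 expression mimic library 1 and control library 2 lay at opposite ends, at -23.0 and 26.0, with mimic library 2 at -4.62 and control library 1 at 1.53. The hepatocyte identity of the cells was visible in 8 of 8 hepatocyte markers, whose summed level was 46500 and 46100 counts per 1000000 reads of the scaled library (CPM) in mimic libraries 1 and 2 and 45300 and 43500 CPM in control libraries 1 and 2. Of the 8, albumin (ALB) rose with the mimic (log2 difference 0.23, adjusted p = 0.0109 by edgeR). TTR (0.26, adjusted p = 0.119) and AFP (0.13, adjusted p = 0.268) were higher without overlap between groups but were not called by edgeR. With ALB, 3 of the 8 were higher without overlap, where 19.8% of all genes tested were, and the other 5 overlapped. Of the 14464 genes tested, 40 were called higher. The 8 markers of blood, endothelial and mesenchymal cells summed to 24.8 to 27.9 CPM, with PTPRC and CD3E at 0 reads in every library. CD68 and COL3A1 had 0 to 3 reads per library. ACTA2 (mean 13.6 CPM), PECAM1 (8.1 CPM) and COL1A1 (3.43 CPM) were present, with overlapping groups. VWF was higher with the mimic without overlap, from 14 and 22 reads against 7 in each control library. Its log2 difference was 1.297 (unadjusted p = 0.0329, adjusted p = 0.484, edgeR). In bulk RNA, fewer cells in S phase and less RNA of these genes per cell cannot be told apart.

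None of the 41 genes passed the test between mimic and control, and as a group they sat slightly lower in the cells given the mimic. Of all genes tested, 0.346% were called at an adjusted p under 0.05 (quasi-likelihood test of edgeR, adjusted by Benjamini-Hochberg over all genes), and of the 41 genes 0 were. DESeq2, which gave 15 of the 41 an adjusted p, and limma voom also called 0. The log2 fold change of mimic against control was below 0 in 28 of the 41 genes, or 68.3%, against 49.6% of all genes tested. The median was -0.06, with quartiles of -0.17 and 0.02, beside a median of 0.001 over all genes. At an unadjusted p under 0.05, 7 of the 41 were lower (17.1%, where 4.37% of all genes were) and 2 were higher (4.88%, where 5.06% were). These were MCM5, CDC45, CDCA7, RRM2, UHRF1, BRIP1 and geminin (GMNN) on the lower side and USP1 and CCNE2 on the higher side. Both mimic libraries lay below both control libraries in 13 of the 41 genes (31.7%, against 19.3% of all genes) and above both in 3 (7.32%, against 19.8%). DESeq2 placed 3 lower and 0 higher at an unadjusted p under 0.05. Without control library 2 the number lower was 4 and the median -0.04, and without mimic library 2 the number lower was 5 and the median again -0.04.

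**Figure D1:**
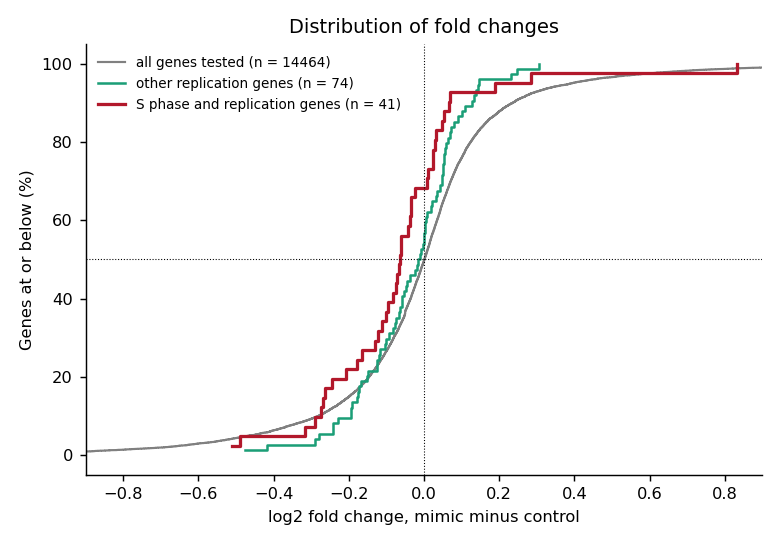
Cumulative percentage of genes (vertical axis) at or below each log2 fold change of mimic minus control (horizontal axis, drawn from -0.9 to 0.9) for the 41 S phase and replication genes, 74 other replication genes and all 14464 genes tested. The line of the 41 genes crosses 50% at -0.06, to the left of the line of all genes at 0.001.

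The 4 libraries did not separate cleanly by group over the whole list. The mean deviation of the 41 genes from the 4-library mean of log2 CPM was -0.005 in mimic library 1 and -0.06 in mimic library 2, and -0.002 in control library 1 and 0.07 in control library 2. By this mean, mimic library 1 and control library 1 were level, and mimic library 2 and control library 2 lay furthest apart. Genes at low counts weigh as much in it as others, such as CCNE2 (0.458 in mimic library 1 and -0.42 in control library 1). The median log2 fold change was -0.063 with all libraries, -0.036 without mimic library 2 and again -0.036 without control library 2. In the helicase group mimic library 1 was the lowest, at -0.086. Control library 2 held the highest value in 22 of the 41 genes (53.7%, against 28.4% of all genes), and mimic library 2 the lowest in 16 (39.0%, against 21.9%). Control library 2 also lay at one end of the first principal component and had the lowest summed level of the hepatocyte markers, and the part of either in the lower values of the 41 genes was not tested beyond leaving the library out.

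**Figure D2:**
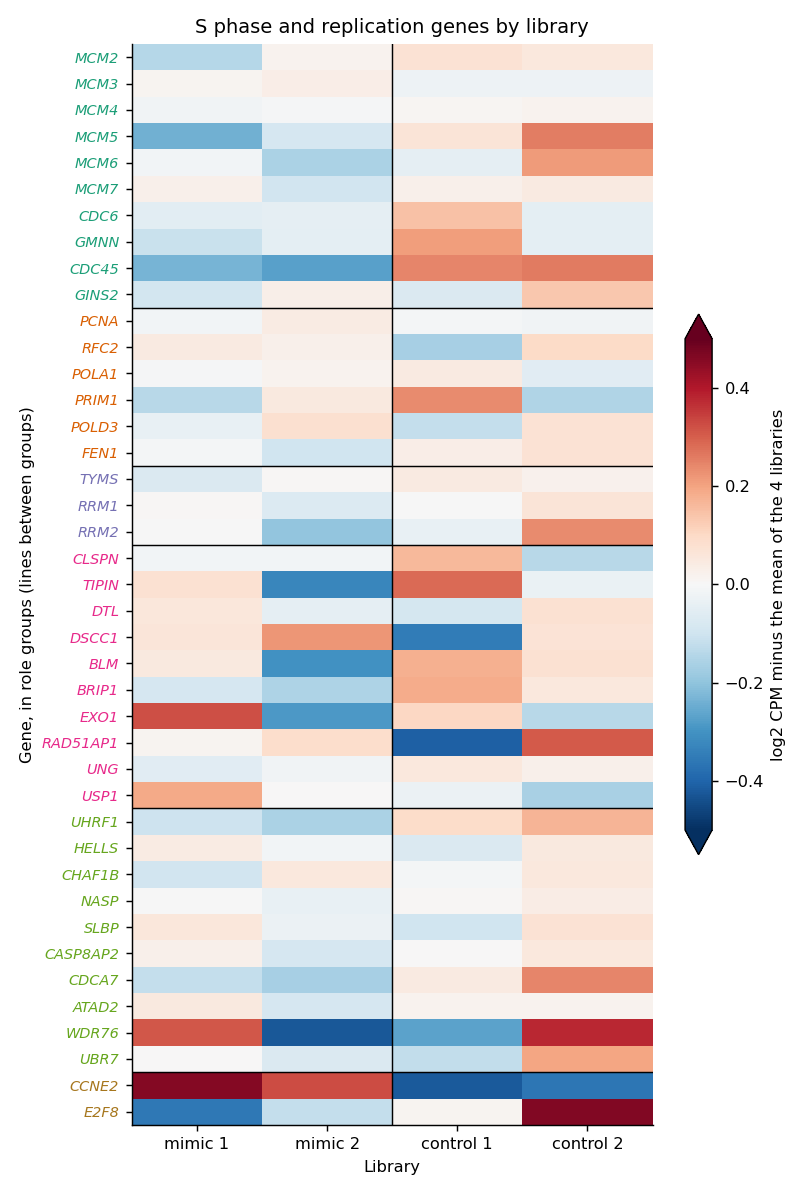
Each row is a gene, grouped by role and coloured by group, and each column a library. The colour gives log2 CPM minus the mean of the 4 libraries, from blue (lower) to red (higher). The block of helicase genes at the top is bluer in both mimic columns, while the polymerase and fork protection blocks show no common side.

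The genes of the helicase and of the factors that load and activate it had lower mean levels in both mimic libraries than in either control library. Of these 10 genes 9 had a log2 fold change below 0, where 49.6% of all genes tested did, and the median was -0.11. Their mean deviations were -0.09 and -0.06 in mimic libraries 1 and 2 against 0.06 and 0.09 in control libraries 1 and 2. Taken singly, 5 of the 10 overlapped between groups, 4 were lower without overlap and 1, MCM3, was higher without overlap. Among all genes tested, 19.3% were lower and 19.8% higher without overlap. Of the other role groups, the 3 genes of nucleotide supply also had lower mean deviations in both mimic libraries than in both controls. Taken singly, 2 of these 3 genes overlapped between groups. Genes of like role in the separate list described below did not separate in this way. The 11 licensing genes there had mean deviations of 0.019 and -0.052 in mimic libraries 1 and 2 and -0.028 and 0.061 in control libraries 1 and 2. The 10 genes of origin firing had 0.033 and -0.075 against 0.03 and 0.013. Below 0 were 9 of the 11 and 6 of the 10, against the same 49.6% of all genes tested.

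Within the MCM ring the subunits did not move alike. MCM5 (ENSG00000100297, chr22:35400140-35455031 of GRCh38, plus strand), a subunit at the gate through which the ring opens, stood at 40.6 and 45.2 CPM in mimic libraries 1 and 2 and at 50.1 and 57.3 CPM in control libraries 1 and 2. All mimic values were below all control values, and control library 2 was the highest. The group means were 42.9 ± 3.28 CPM (mimic) and 53.7 ± 5.08 CPM (control; SD, n = 2 each). This is a log2 fold change of -0.32 (SE 0.08, 95% interval -0.49 to -0.14). Its unadjusted p of 0.00112 was the smallest of the 41, and its adjusted p was 0.139 (edgeR's quasi-likelihood test, Benjamini-Hochberg). MCM5 was called without control library 1 (log2 fold change -0.41, adjusted p = 0.00151 by edgeR) and without mimic library 2 (-0.40, adjusted p = 0.0343). It was not called without mimic library 1 (-0.25, adjusted p = 0.671) or without control library 2 (-0.22, adjusted p = 0.626). Leaving out a library also moved the calls over all genes, to 2.78% without control library 1 and 0.789% without mimic library 2, against 0.130% without mimic library 1 and 0.144% without control library 2.

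MCM2, which pairs with MCM5 at that gate and also holds histones, was measured at 51.7 and 57.8 CPM with the mimic and 60.2 and 59.4 CPM in the control. The groups again did not overlap, but the log2 fold change of -0.12 had an interval from -0.28 to 0.04 (adjusted p = 0.654, edgeR). Exons of other genes on the opposite strand cover 23.6% of the MCM2 exon sequence, and whether reads were counted by strand is not given in the sources used here.

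MCM3 was the one helicase gene on the higher side, at 261 and 264 CPM with the mimic and 254 CPM in each control library. Its log2 fold change of 0.05 had an interval from -0.05 to 0.15, which does not reach any part of the MCM5 interval, although the difference between the subunits was not itself tested. MCM4 stayed within 123 to 126 CPM in all libraries (log2 fold change -0.02, interval -0.14 to 0.09). MCM7 read 124 and 114 CPM with the mimic and 124 and 126 CPM in the control, and MCM6 21.2 and 19.2 against 20.8 and 24.8 CPM. Their log2 fold changes were -0.07 and -0.18, with overlapping groups. Without control library 2 the MCM6 value was -0.04.

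Per length of exon sequence, the subunits of this ring of 6 proteins were far apart in mRNA level. In reads per 1000 bases and 1000000 reads (RPKM, mean of the 4 libraries), MCM3 stood at 70.7, MCM7 at 27.9, MCM4 at 17.9, MCM2 at 11.7, MCM5 at 6.58 and MCM6 at 5.22. MCM5 and MCM6 did not differ beyond their spread on this scale, with library values of 5.53 to 7.80 RPKM for MCM5 and 4.65 to 6.03 RPKM for MCM6. The other neighbours in the order had library values that did not overlap. The lengths used are unions of all annotated exons and need not be those of the transcripts present.

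**Figure D3:**
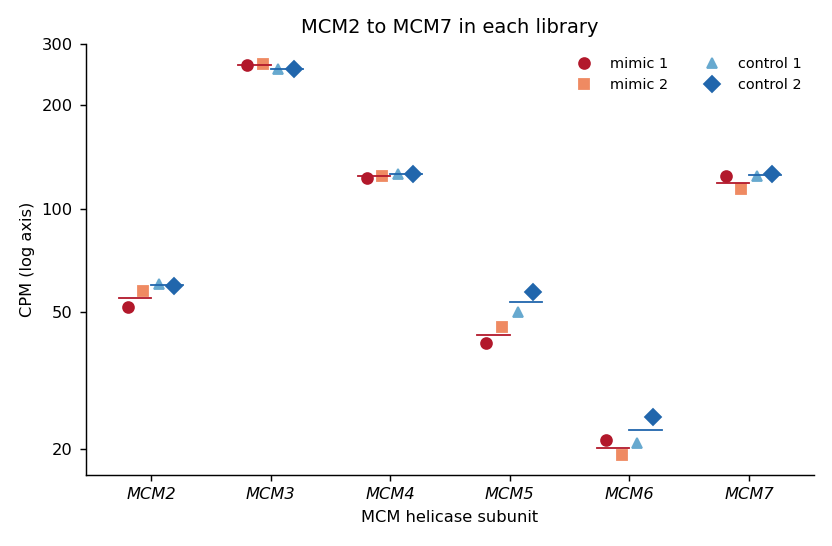
CPM on a log axis for MCM2 to MCM7 in each library, with short lines at the mean of the 2 mimic libraries and of the 2 control libraries. MCM5 runs from 40.6 to 57.3 CPM with the mimic below the control, whereas MCM3 and MCM4 are nearly level across libraries.

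CDC45, which joins MCM and GINS to form the active helicase, had the largest difference of the 41 on the lower side. CDC45 (ENSG00000093009, chr22:19479466-19520612, plus strand) stood at 6.73 and 6.55 CPM with the mimic and at 9.39 and 9.50 CPM in the control, from 103, 123, 158 and 153 reads. The 2 values within each group were close and the groups far apart. The log2 fold change was -0.51 (SE 0.17, interval -0.87 to -0.15, unadjusted p = 0.00788, adjusted p = 0.313, edgeR). This value ranged only from -0.53 to -0.49 over the 11 alternatives that gave an adjusted p, and none of them called it. GINS2, its partner in the active helicase, stood at 14.2, 15.5, 14.4 and 16.7 CPM, mimic libraries first, with a log2 fold change of -0.06.

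Of the 2 genes that set licensing itself, GMNN encodes geminin, the inhibitor of CDT1, and CDC6 encodes a loader of the ring. GMNN was measured at 62.1 and 64.9 CPM with the mimic and 77.5 and 64.9 CPM in the control. Its log2 fold change of -0.17 (interval -0.33 to -0.002, unadjusted p = 0.0472, adjusted p = 0.521, edgeR) rested on control library 1, without which it was -0.03. CDC6 was at 21.9 and 22.0 CPM with the mimic and 25.2 and 22.0 CPM in the control, again with control library 1 alone on the high side (log2 fold change -0.10).

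**Figure D4:**
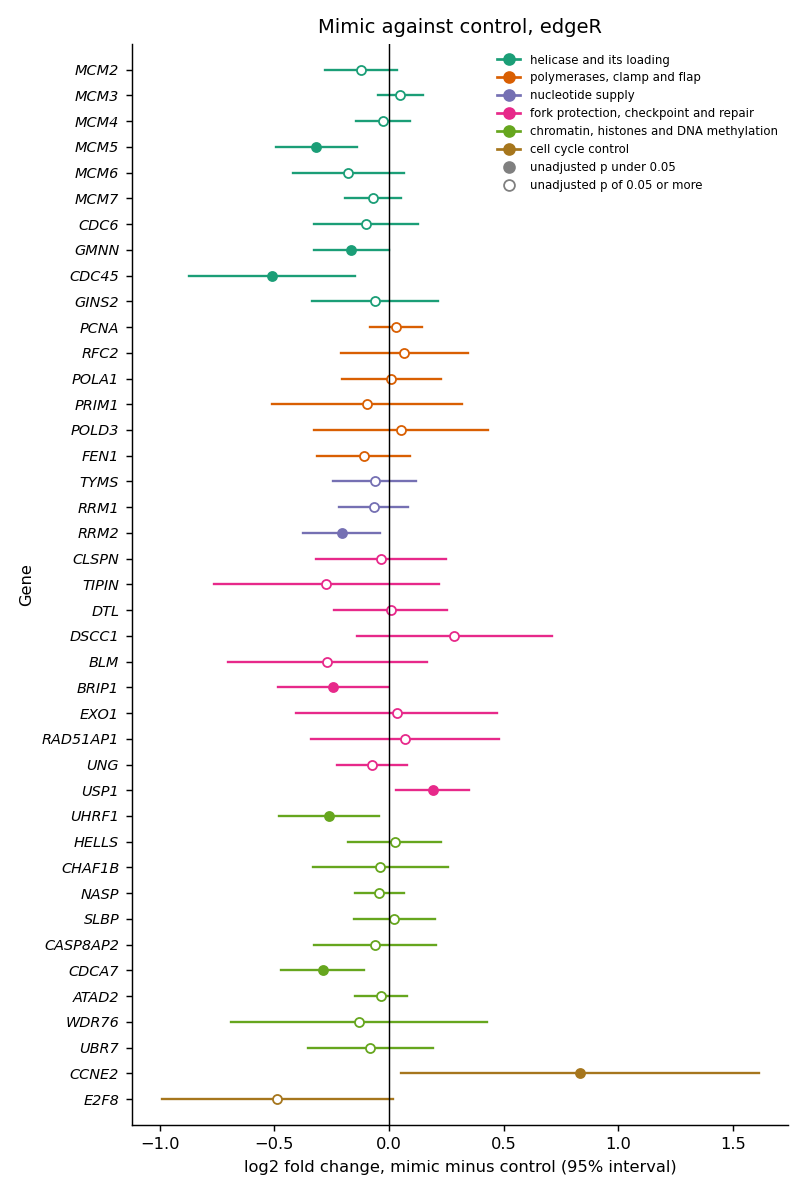
Log2 fold change of mimic minus control with its 95% interval for each of the 41 genes, coloured by role, with filled points at an unadjusted p under 0.05 (edgeR). Of the filled points 7 lie left of 0, among them MCM5 and CDC45, and 2 lie right of it, USP1 and CCNE2.

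The enzymes that copy the DNA did not lean to one side. Among PCNA, RFC2, POLA1, PRIM1, POLD3 and FEN1, 2 genes were below 0 and 4 above, with a median of 0.02 and none at an unadjusted p under 0.05. PCNA, the sliding clamp and per length the most abundant of the 41 at 98.4 RPKM, stood at 144 and 149 CPM with the mimic and 144 and 143 CPM in the control. Its log2 fold change was 0.03, with an interval from -0.08 to 0.14. FEN1, the flap nuclease that trims Okazaki fragments, had the smallest p of the group, at 27.1 and 25.5 CPM against 27.9 and 28.8 CPM (log2 fold change -0.11, interval -0.31 to 0.09, adjusted p = 0.794, edgeR). POLA1, the catalytic subunit of the polymerase that starts each strand, was at 0.01, its primase partner PRIM1 at -0.10, the clamp loader subunit RFC2 at 0.07 and the polymerase delta subunit POLD3 at 0.05.

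All 3 genes of nucleotide supply were below 0, and the largest difference was in RRM2. Their mean deviations were -0.02 and -0.09 in mimic libraries 1 and 2 and 0.002 and 0.11 in control libraries 1 and 2, with mimic library 1 close to control library 1. RRM2 is the small, cell cycle-regulated subunit of ribonucleotide reductase, which makes deoxynucleotides. It stood at 81.6 and 71.2 CPM with the mimic and 79.7 and 96.2 CPM in the control. Mimic library 1 was above control library 1, so the groups overlapped, and control library 2 was the highest. The log2 fold change was -0.21 (SE 0.08, interval -0.38 to -0.04, unadjusted p = 0.0177, adjusted p = 0.407, edgeR). It was -0.06 without control library 2, and -0.34 with a call without control library 1 (adjusted p = 0.00144, edgeR), where 2.78% of all genes were called. Without mimic library 1 it was -0.31 and without mimic library 2 -0.11, neither called. A same-strand gene shares 20.2% of its exon sequence. The large subunit RRM1 ranged from 57.2 to 62.8 CPM (log2 fold change -0.07) and thymidylate synthase (TYMS) from 34.3 to 37.2 CPM (-0.06), the latter with 46.6% of its exon sequence opposite other genes.

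Among the 10 genes of fork protection, checkpoint and repair 5 were below and 5 above 0, with a median of -0.01. BRIP1, a helicase that works with BRCA1 in crosslink repair, stood at 18.1 and 17.2 CPM with the mimic and 21.8 and 19.9 CPM in the control without overlap (log2 fold change -0.24, interval -0.49 to -0.004, unadjusted p = 0.0467, adjusted p = 0.520, edgeR). USP1, the enzyme that removes ubiquitin from PCNA and FANCD2, was on the other side, at 73.5 and 64.5 CPM with the mimic and 63.0 and 57.5 CPM in the control. Its groups did not overlap, though mimic library 2 and control library 1 were close. The log2 fold change was 0.19 (SE 0.08, interval 0.03 to 0.35, unadjusted p = 0.0219, adjusted p = 0.423, edgeR), and over the alternatives it ran from 0.10 to 0.28. DSCC1, part of an alternative clamp loader, had the largest value on the higher side among genes averaging at least 5 CPM, at 6.60 and 7.40 CPM against 4.93 and 6.64 CPM. Its log2 fold change of 0.28 had an interval from -0.14 to 0.71, and it was 0.08 without control library 1 and 0.51 without control library 2. The others had log2 fold changes from -0.27 to 0.07, and among them were the uracil glycosylase UNG, the checkpoint mediator CLSPN, its partner TIPIN, the ubiquitin ligase adaptor DTL, the helicase BLM and the nuclease EXO1.

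Of the 10 genes that handle chromatin and DNA methylation 8 were below 0, with a median of -0.05, but by mean deviation mimic library 1 (0.02) lay above control library 1 (-0.04), and control library 2 (0.13) was highest in 9 of the 10. Both genes of the group at an unadjusted p under 0.05 act on DNA methylation. CDCA7, which partners the remodeller HELLS, stood at 38.2 and 36.9 CPM with the mimic and 42.8 and 49.1 CPM in the control, with no overlap. Its log2 fold change was -0.29 (SE 0.09, interval -0.47 to -0.11, unadjusted p = 0.00296, adjusted p = 0.220, edgeR). CDCA7 was called without control library 1 (-0.39, adjusted p = 0.00832, edgeR), where 2.78% of all genes were, and was at -0.19 without control library 2. UHRF1, which brings DNMT1 to newly copied DNA, stood at 21.7 and 20.9 CPM with the mimic and 24.8 and 26.2 CPM in the control, also without overlap (log2 fold change -0.26, SE 0.10, interval -0.48 to -0.04, unadjusted p = 0.0204, adjusted p = 0.417, edgeR). HELLS itself stayed between 26.8 and 29.1 CPM in all libraries, a log2 fold change of 0.02.

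The remaining chromatin genes had log2 fold changes from -0.13 to 0.02. They were the histone chaperones NASP and CHAF1B, the histone mRNA binding protein SLBP, the histone gene regulator CASP8AP2, the bromodomain ATPase ATAD2, WDR76 and UBR7. NASP ranged from 175 to 184 CPM and ATAD2 from 192 to 211 CPM, while WDR76, at 3.41 to 6.02 CPM, spread more widely within each group than between them.

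CCNE2 and E2F8, both regulators of the cycle itself, pointed in opposite directions at low counts. CCNE2, cyclin E2, which activates CDK2 at the entry to S phase, stood at 2.29 and 2.08 CPM with the mimic and 1.19 and 1.24 CPM in the control, from 35, 39, 20 and 20 reads. Its log2 fold change of 0.83 was the largest of the 41 in size, with an interval from 0.05 to 1.61, an unadjusted p of 0.0373 and an adjusted p of 0.498 (edgeR). Other genes on the opposite strand cover 37.1% of its exon sequence. E2F8, a repressor of E2F targets, stood at 3.46 and 4.10 CPM with the mimic and 4.52 and 6.21 CPM in the control (log2 fold change -0.49, interval -0.99 to 0.02, adjusted p = 0.549, edgeR).

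**Figure D5:**
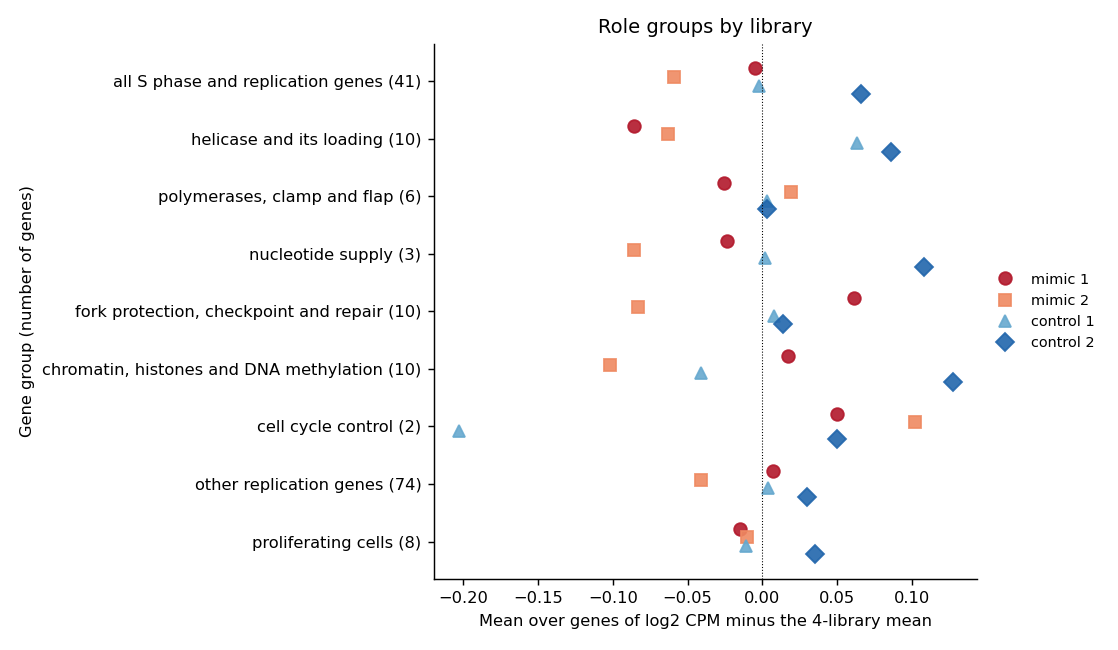
Mean over the genes of each group (number in brackets) of log2 CPM minus the 4-library mean, 1 point per library. In the helicase group both mimic libraries (-0.09 and -0.06) lie left of both control libraries (0.06 and 0.09), whereas in the chromatin group mimic library 1 lies between the controls.

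How small a shift could have been seen depended on the level of the gene. The 12 genes that averaged at least 50 CPM had standard errors of 0.05 to 0.08 in log2 fold change, and the 11 genes under 10 CPM had 0.17 to 0.38. For 34 of the 41 genes the 95% interval lay within 1.5-fold either way, and for 25 within 1.3-fold. The interval allowed a fall of 1.3-fold or more in 12 genes and a rise of that size in 6. CCNE2 was the gene whose interval reached 2-fold.

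A separate list of 75 other replication genes, drawn up by role and not by value, had a median nearer 0. Of these, 74 were tested and 0 were called by edgeR, DESeq2 (26 with an adjusted p) or limma voom. Their median log2 fold change was -0.01, with 41 of 74 below 0 (55.4%, against 49.6% of all genes tested). At an unadjusted p under 0.05, 6 were lower (8.11%, against 4.37% of all genes) and 3 higher (4.05%, against 5.06%). Without mimic library 2 the median was 0.01. On the lower side were thymidine kinase TK1 (-0.29), the polymerase delta subunit POLD2 (-0.24), the E2F repressor E2F7 (-0.48), TIMELESS (-0.19), which partners TIPIN at the fork, the nucleoside diphosphate kinase NME1 (-0.19) and CDK4 (-0.18). TK1 stood at 30.5 and 28.9 CPM with the mimic and 35.6 and 36.9 CPM in the control, and POLD2 at 50.3 and 51.7 against 60.8 and 60.0 CPM, both without overlap. NME1 shares 18.6% of its exon sequence with a same-strand readthrough gene, and 43.2% of CDK4 lies opposite TSPAN31. On the higher side, RFC1, the large subunit of the clamp loader, stood at 179 and 172 CPM with the mimic and 155 and 140 CPM in the control (log2 fold change 0.25, SE 0.06, interval 0.13 to 0.37, adjusted p = 0.0688, edgeR). RFC1 was called without control library 1 (0.33, adjusted p = 0.0001, edgeR) and without mimic library 2 (0.28, adjusted p = 0.0337), where 2.78% and 0.789% of all genes were called. It was not called without mimic library 1 (0.22, adjusted p = 0.432) or without control library 2 (0.17, adjusted p = 0.447). The CDK inhibitor CDKN1A was measured at 137 CPM in each mimic library and 126 and 125 CPM in the control (log2 fold change 0.13, unadjusted p = 0.0308, adjusted p = 0.474, edgeR). The third on the higher side was CDKN1B, also a CDK inhibitor, at 80.3 and 77.5 CPM with the mimic and 71.6 and 70.8 CPM in the control. Its log2 fold change was 0.147 (unadjusted p = 0.0369, adjusted p = 0.497, edgeR). RNASEH2A was the one gene not tested, with 0 reads in each mimic library and 2 and 4 in the control libraries; 30.8% of its exon sequence is shared with the same-strand gene THSD8.

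Markers of proliferating cells, 1 of which (CCNA2) is also among the 75, differed little between the groups. MKI67, TOP2A, CCNB1, CDK1, BIRC5, AURKA, PLK1 and CCNA2 together read 1150 and 1160 CPM with the mimic and 1170 and 1190 CPM in the control, with a median log2 fold change of -0.03 and 5 of 8 below 0. None was called by edgeR, and 1 was higher at an unadjusted p under 0.05, the mitotic kinase AURKA (0.15), without overlap between groups. On the lower side, CDK1 (-0.16, unadjusted p = 0.0674, edgeR) and TOP2A (-0.07) also did not overlap between groups. The other 5 markers overlapped. Among all genes tested, 19.3% were lower and 19.8% higher without overlap, and 49.6% were below 0. MKI67, present throughout the cycle, was at 224, 237, 239 and 234 CPM, mimic libraries first.

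Promoter sequence could be read for most of the 41 genes, and an E2F word was found in 17 of them. Because most genes of this kind are known to be under E2F control, a high share follows from the make-up of the list. RefSeq promoter windows of GRCh38.p14, from 250 bases before to 50 after an annotated start, were matched by symbol for 33 of the 41. ATAD2, CCNE2, DSCC1, E2F8, MCM4, MCM5, POLD3 and WDR76 had no entry. Each symbol had 1 window, which was not always at the start given by the gene coordinates. The UHRF1 window (chr19:4909251-4909550) lies inside the gene, which starts at 4903080. The CDC45 window begins at 19479670, also past its gene start. An E2F word, meaning TTTCCCGC, TTTCGCGC, TTTGCCGC or TTTGGCGC on either strand, was present in 17 of the 33 (51.5%) and not in the other 16, in 20 of 64 windows of the other replication genes (31.2%), in 5.25% of 10418 windows of genes tested here and in 3.33% of all 27305 windows. All 4 of the MCM genes with a window held one. The CCAAT box, the letters CCAAT on either strand, was in 24 of the 33 (72.7%, against 36.8% of genes tested), and TTTGAA, the core of the cell cycle homology region, in 2 (6.06%, against 9.87%). The 3 motifs do not share letters that make one imply another, but 2 E2F words on opposite strands can overlap and then count as 2.

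The 250 bases before the start are shown for MCM6, with the most E2F words, for MCM3 and PCNA, with such a word and log2 fold changes near 0, for CDCA7, with a word and on the lower side, and for GMNN and USP1, on the lower and the higher side without one. They run 5′ to 3′ on the gene's strand, with E2F words in capitals.
MCM6 (chr2:135876444-135876693, minus strand): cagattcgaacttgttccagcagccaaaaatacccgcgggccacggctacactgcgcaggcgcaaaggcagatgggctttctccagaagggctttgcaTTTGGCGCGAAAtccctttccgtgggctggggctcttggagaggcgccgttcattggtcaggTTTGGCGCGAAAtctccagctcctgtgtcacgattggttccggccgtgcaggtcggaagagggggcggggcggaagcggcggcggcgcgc
MCM3 (chr6:52284743-52284992, minus strand): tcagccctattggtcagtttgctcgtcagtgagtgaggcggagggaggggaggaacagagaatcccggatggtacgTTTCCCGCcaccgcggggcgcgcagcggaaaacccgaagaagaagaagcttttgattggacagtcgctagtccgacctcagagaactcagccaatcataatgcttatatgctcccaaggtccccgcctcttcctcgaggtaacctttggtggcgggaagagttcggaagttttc
PCNA (chr20:5126623-5126872, minus strand): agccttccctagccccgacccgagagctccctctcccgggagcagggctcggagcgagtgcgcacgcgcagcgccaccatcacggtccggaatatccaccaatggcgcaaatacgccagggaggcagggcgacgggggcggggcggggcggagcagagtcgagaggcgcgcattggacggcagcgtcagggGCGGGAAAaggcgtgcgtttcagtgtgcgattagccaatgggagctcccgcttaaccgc
CDCA7 (chr2:173354622-173354871, plus strand): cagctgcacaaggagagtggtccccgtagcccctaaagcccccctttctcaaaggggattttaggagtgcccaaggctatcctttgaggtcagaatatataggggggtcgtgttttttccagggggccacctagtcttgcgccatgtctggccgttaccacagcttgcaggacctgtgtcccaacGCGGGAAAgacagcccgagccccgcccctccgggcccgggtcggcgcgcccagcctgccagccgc
GMNN (chr6:24774687-24774936, plus strand): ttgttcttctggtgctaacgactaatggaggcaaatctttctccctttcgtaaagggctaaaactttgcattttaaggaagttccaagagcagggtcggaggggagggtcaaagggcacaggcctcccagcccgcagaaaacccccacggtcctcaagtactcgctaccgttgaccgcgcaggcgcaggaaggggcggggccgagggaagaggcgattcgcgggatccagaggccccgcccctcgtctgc
USP1 (chr1:62436145-62436394, plus strand): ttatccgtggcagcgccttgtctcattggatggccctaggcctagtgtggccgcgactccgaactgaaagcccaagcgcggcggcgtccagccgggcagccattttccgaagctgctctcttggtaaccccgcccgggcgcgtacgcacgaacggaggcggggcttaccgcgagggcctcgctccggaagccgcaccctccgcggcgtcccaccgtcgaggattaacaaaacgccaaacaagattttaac

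In MCM6 each run of capitals is a pair of overlapping words, 4 in all, which begin 152, 148, 90 and 86 bases before the start. The bases just after this start were not found in the annotated transcripts, unlike those of the other genes shown. The MCM6 distances therefore hold for the RefSeq start only. The PCNA word begins 59 bases before the start and the CDCA7 word 65, and MCM3 holds one 174 bases before the start and another that crosses it and is not marked.

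The log2 fold changes of genes with and without an E2F word lay close together. The median was -0.06 in the 17 genes with a word and -0.09 in the 16 without. The order was the other way in the other replication genes, at -0.03 with a word and -0.001 without, and in all genes tested, at -0.007 and 0.003. These differences were not tested. Of the 6 lower genes at an unadjusted p under 0.05 that had a window, 2 held a word, CDCA7 and UHRF1, against 15 of the 26 genes with a higher p. The windows of UHRF1 and of CDC45, which held none, lie inside the gene, so this count need not describe their main promoters. MCM5, with the smallest p of the 41, had no window. A match to these letters is a description of the window and does not show binding.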

How the data were processed

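Poly(A)-selected RNA of 4 Hep G2 samples was measured, 2 per group. The authors deposited raw read counts per Ensembl gene, not normalized. The submitters' processing notes name FastQC, Bowtie2, STAR, HTSeq and the build GRCh38.p14, and per the file headers rRNA reads were removed first. For versions, annotation release and strand setting: not given in the sources used here. Summary entries that name no gene (23.1% to 24.1% of each column) were left out. Symbols were matched for 62590 of 62655 IDs.

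Counts were tested with edgeR 4.0.16 (R 4.3.3) after filterByExpr (minimum count 10, minimum total 15) and TMM scaling, with the quasi-likelihood F test, legacy = FALSE, and Benjamini-Hochberg adjustment over 14464 genes at a threshold of 0.05. CPM are on the TMM-scaled library size of the tested genes, and log2 CPM used a prior count of 2. Exon lengths and overlaps come from GENCODE annotation of GRCh38, gene coordinates from RefSeq. The script was tested on simulated data. Alternatives were DESeq2 1.42.0, limma voom 3.58.1, other scalings and filters, legacy = TRUE, each library left out, and a block.

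The members and lists were chosen with earlier results of these data known. Genes named with full values were the MCM subunits, those at an unadjusted p under 0.05, the smallest p per role group, and the largest difference each way at a mean of 5 CPM or more. Of the other replication genes, at most 8 with an unadjusted p under 0.05 and that mean were chosen. CDKN1B was named in addition to complete those on the higher side.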

Additional observations from a re-analysis of the deposited data

How the results depend on the processing

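The number of the 41 genes called (0 in the fit reported) was 3 with a replicate block by column number (MCM5, RRM2 and CDCA7) and ran from 0 to 3 with a library left out, the 3 without control library 1 and 1 without mimic library 2. Calls over all genes moved too, from 50 (0.346%) to 306 (2.12%) with the block, and with a library left out to 424 (2.78%, control library 1), 120 (0.789%, mimic library 2), 22 (0.144%, control library 2) and 20 (0.130%, mimic library 1). The number lower at an unadjusted p under 0.05 (7) was 3 in DESeq2 and ran from 4 to 7 with a library left out; the number higher (2) was 0 in DESeq2, 1 with a filter at a mean of 5 CPM, which removed CCNE2, and 0 to 1 with a library left out. The median stayed between -0.08 and -0.04. For the other replication genes, the number called (0) was 2 with the block (where 2.12% of all genes were called) and 0 to 2 with a library left out (2 without control library 1, where 2.78% were), the number lower (6) was 2 in DESeq2, the number higher (3) was 1 in DESeq2 and 1 with library totals and 1 to 4 with a library left out, and the median ran from -0.054 to 0.01 with a library left out. The cause of these differences was not tested. Of 278 values of 24 named genes under 12 alternatives, 267 kept their direction and their side of the threshold, 11 passed it, and 0 changed direction. The 11 belong to MCM5, RRM2, CDCA7, RFC1 and POLD2. The sample titles share no replicate numbers between groups, whereas the column numbers do. Over genes the deviations of library 1 of each group correlated at 0.0234. This value is taken over all genes, most of which differ little, so it cannot decide whether the columns were paired. No pairing is stated in the labels, and the calls with the block are given here only. Leaving out a library leaves 1 sample in a group, whose spread is taken from the other group. With 2 libraries per group and 20 to 168 reads for genes under 10 CPM, a shift of 1.3-fold in those genes would not have passed the adjusted threshold.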
